A study of Mus musculus with 6 samples.

Results

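A set of 13 genes was read in every library of one treatment group and in no library of the other. This set held 13 of the 17842 genes with exonic values in sorted mouse lung tumour cells, 5 of them silent in every mA1 library and 8 silent in every control library. A gene was taken when its normalised exonic read count was 0 in all 3 libraries of one group and 30 or more in all 3 libraries of the other. H2-Eb2, which meets the rule, was left out. Genes silent in mA1 libraries were Prokr2, Hal, Npy4r, Oprd1 and Kcnh5. Genes silent in control libraries were Atoh1, Pde1b, Smoc2, Ces1b, Kcnh8, Mcoln3, Gimap6 and Pitpnm2os2. A normalised count is the number of reads in a gene divided by 1 scaling factor for the library. The members were chosen by these exonic values, so the values are given as a description with no test.

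By its title, the study concerns raised levels of Malat1, a nuclear RNA that codes for no protein, in lung adenocarcinoma. All animals carried K-rasG12D+, p53-/- and Cas9+GFP+ tumour cells, and they differed in the agent received, the Con dRNA in 3 animals and the mA1 dRNA in 3. Live GFP+ and Epcam+ cells lacking CD45 were sorted 16 weeks after tumours were started, and each animal gave 1 library of polyadenylated RNA. Malat1 was not analysed here, and the labels have no check from the targeted gene. The libraries held 71093708 to 85248140 exonic reads. Epcam, the epithelial protein of the sort, had 39137 to 81074 normalised counts, and Ptprc, which encodes CD45, 80.8 to 265. Control library 1 stood apart by its low level of Sftpc, the surfactant gene of alveolar type 2 cells, with 508943 normalised counts against 5388090 or more in every other library.

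Receptors, ion channels and lineage transcription factors are commonly kept off in cells that do not use them, and their transcripts are then close to absent. A receptor coupled to G proteins passes a peptide signal into the cell, a voltage-gated potassium channel sets the membrane potential, and a factor such as Atoh1 starts the programme of a cell lineage. In bulk RNA, fewer cells of a type and less RNA per cell cannot be told apart.

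Of the 5 genes silent in mA1 libraries, 3 encode receptors for peptides. Prokr2, the receptor for prokineticins (chromosome 2, 132337733 to 132385447, minus strand, GRCm38), had 586, 53.0 and 269.5 normalised counts in control libraries 1, 2 and 3 and 0 in each mA1 library. Its control values spread 11.1-fold, the widest of all 13 genes, with a mean of 303 ± 268 (SD, n = 3). Npy4r, a neuropeptide Y receptor that binds pancreatic polypeptide (chromosome 14, 34143992 to 34152489, minus strand), had 168, 268 and 84.7 in control libraries. Oprd1, the delta opioid receptor that binds enkephalins (chromosome 4, 132110726 to 132144486, minus strand), had 206, 135 and 74.8. The 3 receptors were thus not ordered alike over the control libraries: library 1 was highest for Prokr2 and Oprd1 and library 2 for Npy4r. A floor of 3 reads in each mA1 library was used, which a count of 0 allows. The control mean was at least 105-fold above this floor for Prokr2, at least 59.98-fold for Npy4r and at least 48.0-fold for Oprd1. These bounds hold for the mean and not for each library, and control library 2 held only 53.0 for Prokr2.

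The other two genes silent in mA1 libraries encode a metabolic enzyme and a channel. Hal, histidine ammonia-lyase, which opens the breakdown of histidine in skin and liver (chromosome 10, 93488768 to 93519304, plus strand), had 262, 122 and 152 normalised counts in control libraries 1, 2 and 3. Kcnh5, a voltage-gated potassium channel of the ether-a-go-go family (chromosome 12, 74897220 to 75177332, minus strand), had 90.9, 56.3 and 135. The mean was 179 ± 73.7 (SD, n = 3) for Hal, at least 61.7-fold above the floor, and 94.1 ± 39.5 for Kcnh5, at least 32.5-fold above it. Hal was thus highest in control library 1 and Kcnh5 in control library 3. Control library 1, the library that stood apart, was the highest for 3 of the 5 genes. In both remaining control libraries every one of the 5 had 53.0 or more. The rule itself set a lowest value for every control library, so these values are no test of the part of control library 1. The promoters of this direction ran from one dense in CpG to one poor in it, and the extremes are shown as the 250 bases before the RefSeq start, 5′ to 3′, with each CpG in capitals: Oprd1 with 34 CpG (chr4:132144487-132144736, minus strand) and Hal with 6 (chr10:93488518-93488767, plus strand, GRCm38.p6).
Oprd1: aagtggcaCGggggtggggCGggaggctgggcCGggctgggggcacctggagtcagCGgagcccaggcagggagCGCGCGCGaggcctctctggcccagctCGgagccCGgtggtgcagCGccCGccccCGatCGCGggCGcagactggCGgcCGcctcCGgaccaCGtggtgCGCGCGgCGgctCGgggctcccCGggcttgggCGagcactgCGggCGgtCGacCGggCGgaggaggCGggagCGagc
Hal: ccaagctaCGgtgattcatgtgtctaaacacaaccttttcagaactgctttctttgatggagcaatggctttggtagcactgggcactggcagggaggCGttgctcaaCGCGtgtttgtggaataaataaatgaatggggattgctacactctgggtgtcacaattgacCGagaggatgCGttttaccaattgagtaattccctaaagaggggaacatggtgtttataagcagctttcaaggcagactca

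**Figure D1:**
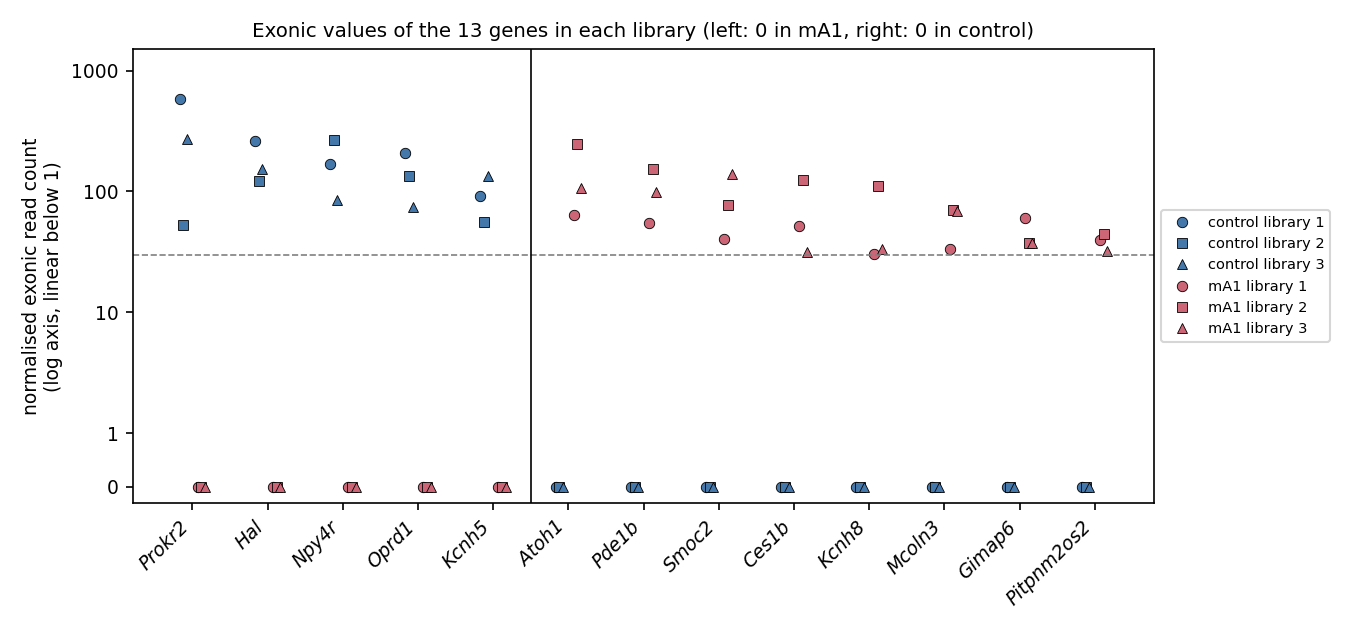
Normalised exonic read count (log axis, linear below 1) of each of the 13 genes in each of the 6 libraries, control in blue and mA1 in red, with the library number as the symbol and the limit of 30 as a dashed line. The 5 genes on the left lie at 0 in all mA1 libraries and between 53.0 and 586 in control libraries, and the 8 on the right lie at 0 in all control libraries and between 30.6 and 246 in mA1 libraries.

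By the median of their means, the 8 genes silent in control libraries were lower where they were read. That median was 63.4 normalised counts, against 174 for the genes of the other direction. Single means in the group that expressed them ran from 38.7 to 138, against 94.1 to 303, so the ranges overlapped. Atoh1, a basic helix-loop-helix transcription factor of gut secretory cells, inner-ear hair cells and cerebellar granule neurons (chromosome 6, 64729125 to 64731245, plus strand), had 63.7, 246 and 106 in mA1 libraries 1, 2 and 3. Its mean of 138 ± 95.1 (SD, n = 3) was at least 45.9-fold above the floor of 3 reads in each control library. Atoh1 is a gene of 1 exon, so no intronic value can exist for it.

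Channels stood on this side too. Kcnh8, a second voltage-gated potassium channel of the family of Kcnh5 (chromosome 17, 52602709 to 52979194, plus strand), had 30.6, 110.1 and 33.4 normalised counts in mA1 libraries 1, 2 and 3. Mcoln3, a cation channel of endosomes and lysosomes (chromosome 3, 146117450 to 146141806, plus strand), had 33.2, 69.7 and 68.8. Members of the Kcnh family thus stood on both sides, and Kcnh8 lay closest to the limit of all 13 genes. The mean in mA1 libraries was at least 19.2-fold above the same floor for Kcnh8 and at least 18.97-fold for Mcoln3.

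Enzymes and secreted proteins made up most of the rest. Pde1b, a phosphodiesterase that breaks cyclic nucleotides when calcium and calmodulin are bound (chromosome 15, 103503034 to 103530052, plus strand), had 55.0, 154 and 98.1 normalised counts in mA1 libraries 1, 2 and 3. Smoc2, a secreted calcium-binding protein of the extracellular matrix (chromosome 17, 14279506 to 14404790, plus strand), had 40.2, 76.8 and 141. Ces1b, a carboxylesterase (chromosome 8, 93056728 to 93080017, minus strand), had 51.5, 123 and 31.3, and its count is uncertain because it belongs to a cluster of similar genes. The mean in mA1 libraries was at least 33.9-fold above the floor for Pde1b, at least 28.5-fold for Smoc2 and at least 22.8-fold for Ces1b. Over all 8 genes mA1 library 2 was highest for 6 and mA1 library 1 lowest for 5. The promoters of this direction again ran from dense to sparse in CpG, shown as above for Pde1b with 26 CpG (chr15:103502784-103503033, plus strand) and Ces1b with 2 (chr8:93080018-93080267, minus strand).
Pde1b: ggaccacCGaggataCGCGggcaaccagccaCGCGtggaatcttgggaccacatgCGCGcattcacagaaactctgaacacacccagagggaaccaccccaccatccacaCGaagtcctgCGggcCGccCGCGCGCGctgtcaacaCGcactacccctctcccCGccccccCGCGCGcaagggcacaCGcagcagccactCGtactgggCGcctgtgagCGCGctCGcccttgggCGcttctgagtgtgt
Ces1b: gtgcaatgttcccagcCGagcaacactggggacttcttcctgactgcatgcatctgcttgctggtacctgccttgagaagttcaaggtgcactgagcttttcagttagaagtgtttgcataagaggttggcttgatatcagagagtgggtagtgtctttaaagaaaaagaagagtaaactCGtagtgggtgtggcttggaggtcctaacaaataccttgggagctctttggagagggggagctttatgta

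Gimap6 and Pitpnm2os2 had the lowest means of the set. Gimap6, a GTPase of the immune-associated family that is best known from lymphocytes (chromosome 6, 48701582 to 48708225, minus strand), had 60.2, 37.4 and 37.4 normalised counts in mA1 libraries 1, 2 and 3. Its mean was at least 14.9-fold above the floor. Pitpnm2os2, an antisense noncoding gene (chromosome 5, 124194907 to 124200346, plus strand), had 39.3, 44.5 and 32.4. Its mean was at least 12.8-fold above the floor, and it varied least between libraries of all 13 genes. Pitpnm2os2 lies inside Pitpnm2 on the opposite strand and shares 0 exonic bases with it. The library kit does not mark strand, so reads of Pitpnm2 introns and of Pitpnm2os2 cannot be told apart. Intronic values of Pitpnm2 were 54.3, 109 and 283 in control libraries, against 395, 451 and 394 in mA1 libraries, so they too were higher in every mA1 library, and their part in the count of Pitpnm2os2 was not tested. Exonic values of Pitpnm2 overlapped between the groups, with 1608 ± 929 in control and 2018 ± 348 in mA1 libraries (SD, n = 3).

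Silence of a whole group was rare and depended on the limit. The rule took 0.028% of all genes in the direction silent in mA1, and 0.0504% in the direction silent in control with H2-Eb2 counted. With no limit on the other group, 72 genes were at 0 in every mA1 library and 188 in every control library. Most of these were also at 0 in a library of the other group, 50 of the 72 and 129 of the 188. Each control library had more genes at 0 (1194 to 1317) than each mA1 library (540 to 1082). Recovered reads did not separate the groups in this way: control libraries held 71093708 to 83602912 exonic reads and mA1 libraries 74872570 to 85248140. As the limit rose from 10 to 50, the direction silent in control lost genes faster, from 27 at 10 to 8 at 30 and 2 at 50. The direction silent in mA1 went from 11 at 10 to 5 at 30 and 5 at 50. At a limit of 75 it fell to 2 and at 100 to 1, while the direction silent in control held 0 at 75. The same limits on the 9 other ways to divide the 6 libraries 3 against 3, each of which mixes the groups, gave 1 to 11 genes with a median of 5, against 14 for the study's groups with H2-Eb2 counted. These counts are a description and carry no p.

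**Figure D2:**
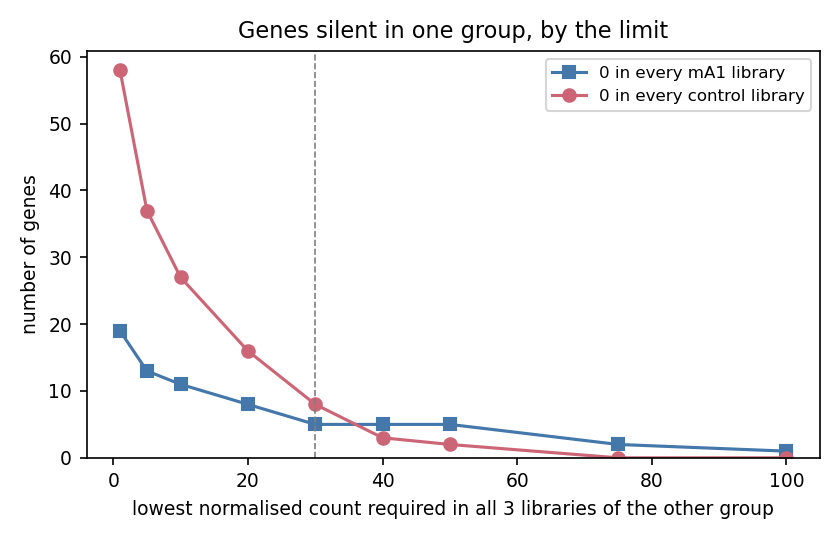
Number of genes at 0 in every mA1 library (squares) or in every control library (circles), without H2-Eb2, against the lowest normalised count required in all 3 libraries of the other group. At the limit of 30 used here (dashed line) the counts are 5 and 8, and at 100 they are 1 and 0.

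Other genes missed the rule narrowly. In the direction silent in mA1, Ighm, the heavy chain of immunoglobulin M, had 771, 29.3 and 293 normalised counts in control libraries and 0 in each mA1 library, missing the limit by its value in control library 2. Tnfsf4, a ligand of the tumour necrosis factor family, had 224, 28.2 and 41.5 in control libraries and 0 elsewhere. Pcdhga9, a gene of the gamma protocadherin cluster, missed by 2 recovered reads in mA1 library 3, with 56.3, 181 and 72.1 in control libraries. Plk5, 1500009L16Rik and Dtx1 were also at 0 in each mA1 library and under the limit in at least 1 control library, and Egr3, Dpysl3, Ndst3 and Sprr2h missed by 4 to 22 recovered reads. The lowest member on this side, Prokr2 in control library 2, lay at 53.0, so no member stood near the limit. In the direction silent in control, Zfp114, a zinc finger gene, had 29.7, 43.5 and 40.4 in mA1 libraries and 0 in each control library. Frem2, an extracellular matrix gene, and Ogdhl, a relative of the oxoglutarate dehydrogenase gene, each had 1 recovered read in the control libraries, with 53.6 to 240 and 44.5 to 53.6 normalised counts in mA1 libraries. Mei4, Gm37730, H60b and RP24-417N13.4 had lowest mA1 values of 24.4 to 27.1, and Gfpt2, Prtg and Nek11 had 2 to 4 recovered reads in control libraries. The lowest members on this side, Kcnh8 (30.6) and Ces1b (31.3), stood just above the limit.

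All 13 genes passed the filter on low values, each through the group in which it was read. In limma on log2(value + 10), 0 of the 13 genes passed an adjusted p of 0.05 over all genes tested, where 0.00602% of 16606 genes passed. With edgeR's quasi-likelihood test on recovered reads 0 of the 13 passed, as did 0% of all genes tested. In both tests the unadjusted p was under 0.05 for all 13, as it was for 2096 of the 16606 genes tested in limma and 1741 of the 16572 tested in edgeR. The authors' deposited table calls all 13 at an adjusted p under 0.05, against 2.91% of all genes with an adjusted p there, 2.07% lower and 0.846% higher in mA1 libraries. DESeq2 on recovered reads called the same 13 (2.75% of all genes tested). The rule used this contrast, so nothing is read from these counts.

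Introns were measured for 3 of the 13 genes, Hal, Kcnh5 and Pde1b, against 70.3% of all genes with exonic values. Intronic reads come largely from RNA not yet spliced and were counted apart from the exonic reads that chose the genes, in the same libraries. Pde1b introns had 11.7, 20.8 and 10.9 normalised counts in mA1 libraries 1, 2 and 3 and 0 in each control library. Pde1b was thus at 0 in control libraries in exons and introns alike. Introns alone were at 0 in every control library for 0.873% of all genes with intronic values, against 0.364% in every mA1 library. Hal introns had 28.1, 64.6 and 0 in control libraries 1, 2 and 3, against 0, 0.865 and 0 in mA1 libraries, where the value in mA1 library 2 is 1 recovered read. The groups overlapped for Hal introns, because control library 3 was at 0 there while it held 152 in exons. Kcnh5 introns had 63.0, 9.01 and 12.5 in control libraries, against 0, 0 and 3.95 in mA1 libraries. The groups did not overlap for Kcnh5 introns, but mA1 library 3 held 4 recovered reads, so its introns were not silent. Of the 3 genes 2 did not overlap between groups in introns, against 16.4% of all genes with intronic values (8.29% lower and 8.07% higher in mA1 libraries), and 1 was at 0 through the whole group. The rule used the same libraries and contrast, so these intronic values are a description and no test. The authors' deposited table of introns calls 0 of the 3 genes past an adjusted p of 0.05, against 1.05% of genes there (0.527% lower and 0.52% higher), and gives 3 of them an unadjusted p under 0.05. DESeq2 on recovered intronic reads gave 1390 of 13652 genes such a p. In limma on introns 1 of the 3, Pde1b, passed the filter on low values, and 0 of all 12791 genes tested passed an adjusted p of 0.05 (1343 at an unadjusted p under 0.05; edgeR called 0 and DESeq2 143, none of the 3 among them).

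**Figure D3:**
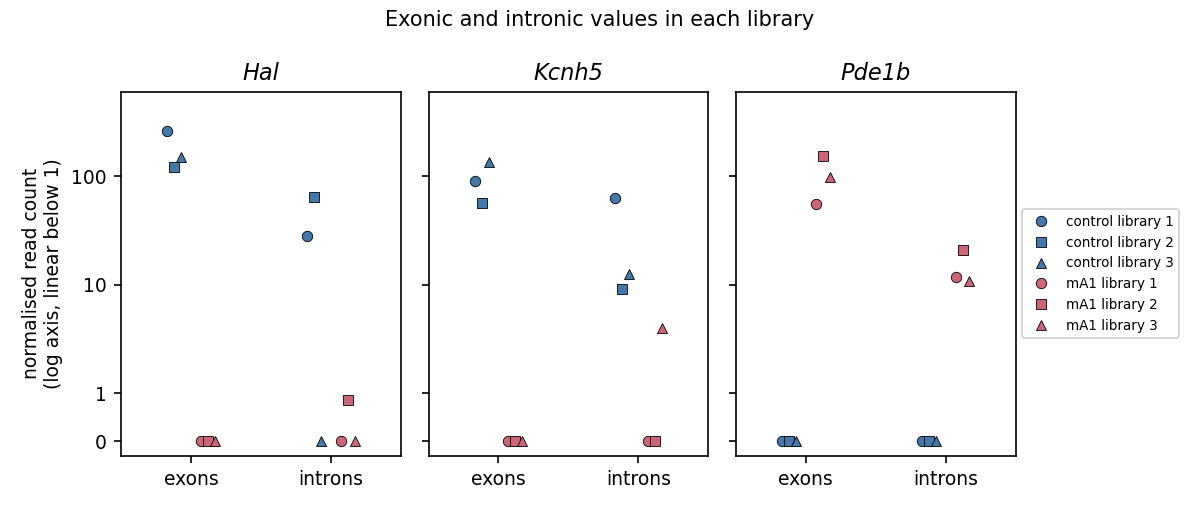
Normalised exonic and intronic read counts (log axis, linear below 1) of Hal, Kcnh5 and Pde1b in each of the 6 libraries, control in blue and mA1 in red, with the library number as the symbol. Pde1b is at 0 in all control libraries in both tables, Hal introns are at 0 in control library 3, and Kcnh5 introns reach 3.95 in mA1 library 3.

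Genes for peptides of the families that Npy4r and Oprd1 bind were read in libraries of both groups. The neuropeptide Y list held 4 measured genes of 8, and the opioid list 5 of 8. Pyy, which encodes peptide YY, a gut hormone of the neuropeptide Y family, had 45.4, 39.4 and 217 normalised counts in control libraries 1, 2 and 3, against 542, 311 and 555 in mA1 libraries. The groups did not overlap for Pyy, and its log2 fold change, mA1 over control on the scale of log2(value + 10), was 2.44 (SE 0.65, limma adjusted p = 0.266). In the authors' deposited table Pyy has a log2 fold change of 2.22 with an adjusted p of 0.0791. Pdyn, which encodes the precursor of dynorphins, opioid peptides that act mainly at the kappa receptor, had 0, 18.0 and 57.7 in control libraries, against 189, 563 and 702 in mA1 libraries. Every mA1 library thus lay above every control library for Pdyn, with a log2 fold change of 4.02 (SE 0.82, limma adjusted p = 0.237) and, in the authors' deposited table, 4.26 at an adjusted p of 0.0221. Npy itself overlapped between the groups, with 2758 ± 1575 in control and 1849 ± 1531 in mA1 libraries (SD, n = 3). Penk, the precursor of the enkephalins that bind Oprd1, was at 0 in 4 of the 6 libraries, with 21.4 in control library 2 and 112.6 in mA1 library 1. The groups also overlapped for the remaining genes of the opioid list, Pomc and Pnoc. Pomc had means of 31.9 in control and 52.2 in mA1 libraries, and Pnoc 14.1 and 3.49. Npy2r, another receptor of the neuropeptide Y family, was at 0 in control libraries 1 and 2 and in mA1 library 1 and held 660, 1022 and 414 elsewhere. The authors' deposited table calls Npy4r and Oprd1 lower, but the rule chose both, and all 13 members are called there. Among the other measured genes of these lists it calls only Pdyn, which is higher. Over all genes it calls 0.846% higher.

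Histidine breakdown was the third list. Amdhd1, which acts further down the same pathway and lies 4.03 kb from Hal, had 139, 246 and 251 normalised counts in control libraries 1, 2 and 3, against 54.1, 20.2 and 162 in mA1 libraries. Its groups overlapped through mA1 library 3, with a log2 fold change of −1.63 (SE 0.68, limma adjusted p = 0.391). Uroc1, the enzyme that follows Hal, was at 0 in 4 of the 6 libraries, with 69.4 in control library 3 and 67.7 in mA1 library 2. Hdc, which turns histidine into histamine, was abundant in both groups, with 15750 ± 13368 in control and 25079 ± 9405 in mA1 libraries (SD, n = 3), and control library 1 alone was low at 1342. Hal, chosen by the rule, is called in the authors' deposited table like all 13 genes of the set. None of the other measured genes of this list is called there.

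**Figure D4:**
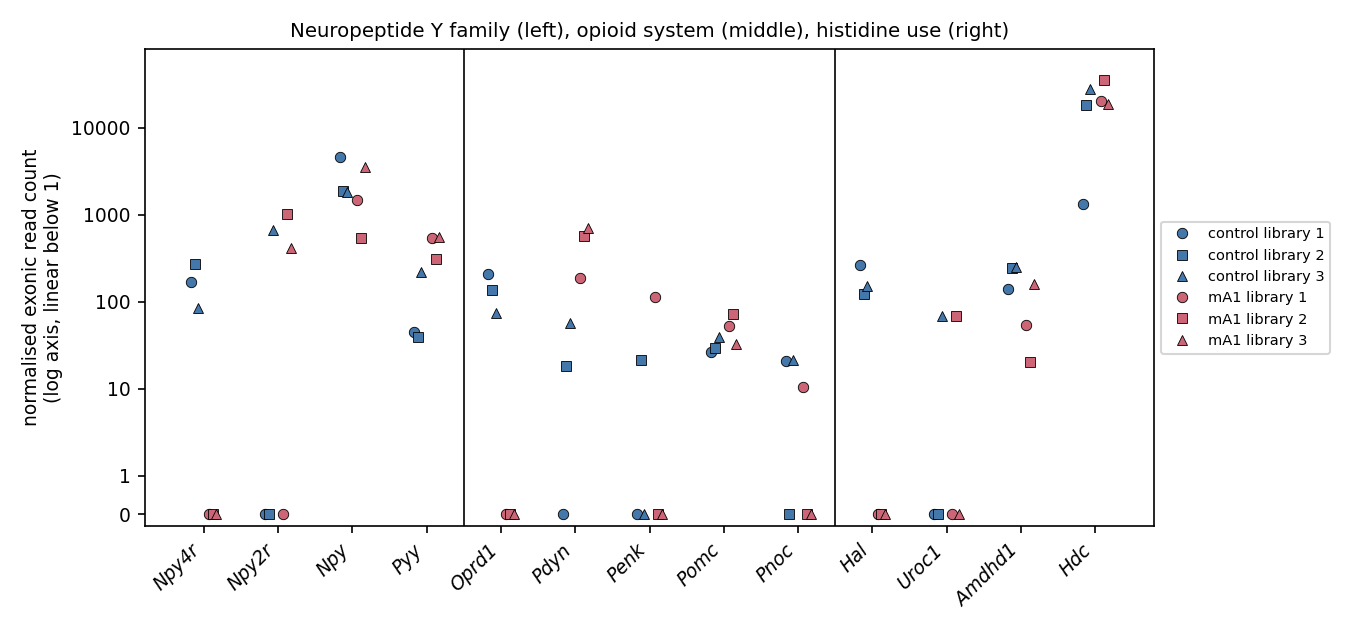
Normalised exonic read count (log axis, linear below 1) of the measured genes of the neuropeptide Y, opioid and histidine lists in each of the 6 libraries, control in blue and mA1 in red. Npy4r, Oprd1 and Hal lie at 0 in all mA1 libraries, while Pyy and Pdyn lie higher in all mA1 libraries than in any control library.

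Relatives of the silent genes were mostly read in both groups. By the root of the symbol, 43 other measured genes shared a name with 1 of the 13 genes. Of these, 15 were at 0 in at least 1 library. Between groups, 8 of the 43 did not overlap (18.6%, against 18.4% of all genes). In mA1 libraries 6 of the 8 were lower and 2 higher, against 9.44% lower and 9% higher over all genes. The authors' deposited table calls 3 of the 43, all lower, against 2.07% of all genes there. Pde6a (means of 166 in control and 15.3 in mA1 libraries), Pde12 and Ces2a were lower without overlap and are not called. Prokr1, the other prokineticin receptor, had 524 normalised counts on average in control and 628 in mA1 libraries, and Atoh8, a distant relative of Atoh1, had 1826 and 1671. Both were thus read in every library, with overlapping groups. In the Kcnh family Kcnh1 had 33.6, 1.13 and 0 in control libraries, against 123, 39.4 and 117 in mA1 libraries, without overlap (limma adjusted p = 0.284), the direction of Kcnh8 and not that of Kcnh5, while Kcnh7 overlapped with means of 180.4 and 172. Among phosphodiesterase genes, the authors' deposited table calls Pde2a (log2 fold change −3.95) and Pde9a (−1.68) lower in mA1 libraries, the opposite direction to Pde1b. Pde4b had higher values in every mA1 library than in any control library (means of 874 and 2102), and Pde1c, the other measured gene of the same subfamily, overlapped with means of 128 and 419.5, both in the direction of Pde1b and neither called in that table. Among carboxylesterase genes, taken by name and not by position, the authors' deposited table calls Ces2c lower (−1.99). Ces1d, the most abundant relative of Ces1b, overlapped with means of 5817 in control and 11352 in mA1 libraries.

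Gimap4 was the only relative at 0 in a whole group, with 0 in each control library and 24.4, 15.2 and 0 in mA1 libraries. It is the nearest measured gene to Gimap6, 9.52 kb away. Gimap9 and Gimap1 were read in all 6 libraries, and the groups overlapped for every other Gimap gene. Of 6 endothelial markers 3 were measured, and their summed level was 56.3 to 103 normalised counts in control and 131 to 169 in mA1 libraries. Pecam1, an adhesion protein of endothelium, had 37.5, 23.7 and 4.51 in control libraries, against 120.5, 107 and 110.2 in mA1 libraries, whereas Cdh5 overlapped with means of 24.4 and 27.4, and Tek overlapped with a lower mean in mA1 libraries (32.7 and 8.04). Cdh5 was at 0 in control library 3 and Tek in control libraries 1 and 2 and mA1 library 3. Pecam1 alone thus carried the higher sum in the group that held Gimap6 reads, and its part in the result was not tested. Over all genes, 9% were higher in mA1 libraries without overlap, and the authors' deposited table gives Pecam1 an adjusted p of 0.135. Ptprc overlapped, with 140, 265 and 264 in control libraries, against 196, 80.8 and 196 in mA1 libraries.

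Markers of other lineages were set beside Atoh1. Of 7 neuroendocrine and neural markers 4 were measured, with a summed level of 102 to 583 in control and 153 to 609 in mA1 libraries, and 0 of them differed without overlap. All 6 markers of gut and gastric endoderm were measured and had lower means in mA1 libraries, the group in which Atoh1 was read, with a summed level of 80179 to 136676 in control and 44159 to 66019 in mA1 libraries. The groups did not overlap for 5 of these 6, all but Gkn2, against 9.44% of all genes lower without overlap. The authors' deposited table calls 4 of the 6 lower, against 2.07% of all genes there. Among the 4 was Cdx2, a transcription factor of the intestine (281, 167 and 725 in control against 9.60, 84.9 and 47.5 in mA1 libraries). Their part in the result for Atoh1 was not tested. Beside Smoc2, a matrix gene, 4 of 7 fibroblast and mural markers were measured, with a summed level of 529.6 to 6286 in control and 1447 to 2026 in mA1 libraries, and 0 of the 4 differed without overlap. Most of that sum was Rgs5, a gene of mural cells, with 420.3 to 5878 in control libraries. The other markers had higher means in mA1 libraries, where Smoc2 was read: Col1a1 with 142 and 169 in control and mA1 libraries, Dcn with 65.0 and 164, and Pdgfrb at 0 in each control library, against 27.1, 65.7 and 0 in mA1 libraries. Their part in the result for Smoc2 was not tested. Of 6 tumour epithelial markers, all measured, Cdh1, Krt8 and Krt18 were lower in every mA1 library than in any control library, Epcam overlapped, and Nkx2-1 and Sftpc overlapped with higher means in mA1 libraries.

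Neighbours on the chromosome were compared next. A measured gene lay within 200 kb on at least 1 side of 11 of the 13 genes, 20 neighbours in all, and 4 of them, Rhoj, Ppp1r1a, Dact2 and Ythdf2, did not overlap between groups (18.4% over all genes). Rhoj, a small GTPase gene 131 kb from Kcnh5, had 995, 504 and 1202 normalised counts in control libraries, against 52.4, 53.6 and 251 in mA1 libraries, the direction of Kcnh5, and the authors' deposited table gives it an adjusted p of 0.00405. Ppp1r1a, an inhibitor of protein phosphatase 0.227 kb from Pde1b, had 0, 22.5 and 0 in control libraries, against 79.4, 78.8 and 28.3 in mA1 libraries, the direction of Pde1b, at an adjusted p of 0.284 in limma and 0.557 in the authors' deposited table. Nckap1l, a blood-cell gene on the other side of Pde1b, had 0, 0 and 2.70 in control libraries, against 82.0, 0 and 113 in mA1 libraries. Ppp1r1a was thus at 0 in control libraries 1 and 3 but not in control library 2, and mA1 library 2 was at 0 for Nckap1l and highest for Pde1b. Ythdf2, a gene 40.4 kb from Oprd1 that encodes a reader of methylated adenosine in RNA, had 9169 normalised counts on average in control and 10362 in mA1 libraries, against the direction of Oprd1. Dact2, a modulator of Wnt signalling 75.2 kb from Smoc2, ran against it, with −1.32 on the log2 scale at an adjusted p of 0.0406 in the authors' deposited table. The neighbours of Prokr2 (Cds2 and Gpcpd1) and the nearer neighbour of Hal (Lta4h, 3.89 kb away) were abundant in all 6 libraries and overlapped.

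The 13 genes shared few features that the rule had not used. They lay on 11 chromosomes in all, 12 of them code for proteins (92.3%, against 78.6% of measured genes with a unique annotated name), and their median exonic length was 4021 bases against 3561. Per kilobase of exon, the mean level in the expressing group ran from 10.1 normalised counts for Pitpnm2os2 to 65.3 for Atoh1. RefSeq promoters were matched for 12 of the 13 genes, all but Smoc2, and for 11374 measured genes. In the 250 bases before the start, the 12 promoters had a median of 10 CpG against 15 over all, and 4 of the 12 reached a ratio of observed to expected CpG of 0.6, against 61.2% over all. Kcnh5 lay just under this ratio at 0.599. The letters TATAAA, searched on both strands, were found in 3 of the 12, those of Hal, Gimap6 and Pitpnm2os2, against 7.28% over all. CCAAT was found in 3 (35.4% over all), GGGCGG in 8 (55.4%) and CANNTG, the core letters bound by basic helix-loop-helix factors such as Atoh1, in 10 (58.7%), each on both strands. These are descriptions of 12 windows, and a match of letters is not a binding site. In the group that expressed them, the 13 genes had means above those of only 20.3% to 40.8% of all genes. The promoters of all measured genes were not matched for this level.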

How the data were processed

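RNA with poly(A) tails from sorted tumour cells was measured in 6 libraries, 3 of each group, from different animals per the labels' protocols. The submitters' processing notes list DESeq2, HTSeq 1.99.2, TopHat2 2.1.1 and the build mm10; annotation, strand setting and filter are not given in the sources used here. The authors deposited exonic and intronic signal values, read counts divided by 1 size factor per library per the file headers and the values. All values were whole multiples of 1 step (tolerance 0.05), so reads were recovered. In exonic mA1 libraries 2 and 3 that step is 1.01, so whole reads are harder to tell there. The authors' deposited log2 fold changes, adjusted p-values and p-values are quoted as theirs; the header of that table does not name the groups, and its signs are those of mA1 over control.

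The members, lists and tests were chosen with earlier results of these data known. limma 3.58.1 (R 4.3.3) was run on log2(value + 10), which understates changes of low genes, with its trend option and only genes at 10 or more in 3 or more libraries, adjusted by Benjamini-Hochberg over all genes at 0.05, and tested on simulated data. The simulated data left out low genes and had none silent in a whole group, so that test does not cover genes like the members. edgeR 4.0.16 and DESeq2 1.42.0 on recovered reads, other pseudocounts, no filter, a replicate block, other limits and each library left out were alternatives. All members are named, with values in every library. Floors are 3 reads per library, and they cover counting error only. Fold values set the mean of the expressing group against the floor. Positions are from GENCODE M21 (GRCm38), promoters from RefSeq (GRCm38.p6). Malat1 and protein sequences were not analysed here, and lymphocyte markers are not reported here.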

Additional observations from a re-analysis of the deposited data

How the results depend on the processing

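Genes silent in every mA1 library numbered 8 at a limit of 20 (5 as reported) and 9 to 15 when 1 library was left out. Genes silent in every control library numbered 16 at a limit of 20, 2 at a limit of 50 and 17 to 46 when 1 library was left out, with 46 without control library 3 (8 as reported). Leaving out a library can only add genes to either count, and each of the 6 libraries moved both counts by over 1.5 times. With recovered reads in place of normalised values the counts were 5 and 10, and with at most 1 read allowed in the silent group also 5 and 10. Members with silent introns numbered 2 instead of 1 when 1 intronic read was allowed, and 1 to 2 when a library was left out. Exonic genes past the threshold numbered 1 in limma, 0 in edgeR's quasi-likelihood test (1741 at an unadjusted p under 0.05), 478 in DESeq2 and 0 to 1 without 1 library. Intronic genes numbered 0 in limma (1343 at an unadjusted p under 0.05), 0 in edgeR (1038), 143 in DESeq2 and 0 to 1 without 1 library. Without a library of the group in which they were read, members no longer passed limma's filter of 3 libraries. The cause of the differences between tools was not tested. Nothing in the labels says that replicate numbers pair the libraries. The group mean of each gene was subtracted from log2(value + 10), and the remainders were compared between control and mA1 libraries. Correlations of these remainders were 0.0187, 0.0659 and −0.102 for same-numbered libraries, against −0.178 to 0.173 for libraries of different number. So few values cannot tell whether libraries were paired. The replicate block gave 0 exonic and 0 intronic genes (1868 and 1206 at an unadjusted p under 0.05).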
